A study of Mus musculus with 7 samples.

Results

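Claudins are the membrane proteins that give tight junctions their barrier, and 10 claudin genes of the mouse liver are described here with and without the microRNA miR-122: Cldn1, Cldn2, Cldn3, Cldn4, Cldn5, Cldn6, Cldn7, Cldn8, Cldn12 and Cldn14. They were taken as every probe set on the array whose annotated symbol is exactly 1 of these names, which gave 18 probe sets of 45037 and 10 genes of 18193. The 10 genes were chosen on the knockout and wild-type values of these same arrays, so each claudin difference below is a description and carries no test. Cldn2 and Cldn7 were higher in every knockout liver than in every wild-type liver, by 1.25 ± 0.20 (SE) and 1.87 ± 0.40 (SE) on the log2 scale. For Cldn7 no wild-type array exceeded the background floor defined below, and with wild type set to that floor its rise was at least 1.46. Cldn1 and Cldn12 were lower in every knockout liver, with differences of -0.75 ± 0.14 (SE) and -0.68 ± 0.14 (SE), and the arrays of the other 6 genes overlapped between genotypes. Over all genes, every knockout array was above every wild-type array for 9.15% and below every wild-type array for 6.62%.

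The study asked how gene expression differs in liver that lacks miR-122, the most abundant microRNA of hepatocytes. It profiled 7 mice of 2 months on the B6/129 background with Affymetrix expression arrays, 1 array per animal. Wild-type livers (genotype WT) are named by animal number as WT-27, WT-103 or WT-104, and miR-122 knockout livers (genotype KO) as KO-03, KO-90, KO-91 or KO-94. Sex, litter, batch and the way the knockout was made are not in the labels. With 1 array per animal, differences between animals and differences from sample handling cannot be told apart in the spread between arrays. miR-122 itself was not measured by these arrays, and the genotype of each liver rests on its label.

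A claudin crosses the membrane several times and binds claudins of the neighbouring cell, closing the space between epithelial cells or leaving it open to chosen ions and water. In liver, claudins of hepatocytes line the bile canaliculus and keep bile apart from blood, and bile duct cells and endothelial cells have claudins of their own. Tight junctions also hold occludin and related membrane proteins, and scaffold proteins tie them to the actin cytoskeleton.

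All values are log2 expression values from robust multi-array analysis (RMA). A probe set's level was compared only between arrays, never with the level of another probe set. Each array's floor was the highest of its 27 Bacillus control probe sets, which lay between 4.71 and 5.23 on the log2 scale. It was the same probe set on all 7 arrays, and the median of the 27 lay lower, between 2.86 and 3.14. A value at or under the floor says only that the signal was not above that highest control. A gene with several probe sets was represented by the brightest of them, judged by its mean signal. Of all 18193 genes, 2.58% were called higher in knockout and 0.951% lower, at a Benjamini-Hochberg adjusted p under 0.05 in limma. For the counts at an unadjusted p under 0.05 below, no share over all genes is given, and nothing is read from them. The median difference over all genes was 0.013 on the log2 scale. The 8 measured hepatocyte markers were above the floor on all 7 arrays, and their summed linear signal was between 119430 and 122864 in wild type and between 125428 and 128245 in knockout. Every knockout sum was thus above every wild-type sum. A linear sum is weighted to its brightest genes, here and in the lists below. The hepatocyte markers did not rise as a set. Their median difference was 0.013, with 4 positive and 4 negative, and the largest was that of Tat, 0.90, which was not called.

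The stretches before the start sites of Cldn2 and Cldn7, which were higher in knockout, and of Cldn1 and Cldn12, which were lower, are shown because these are the claudins the comparison turns on. Each is the 250 bases before the gene's start in RefSeq on GRCm38.p6, written 5′ to 3′ on the gene's strand, at chrX:139800558-139800807 on the plus strand for Cldn2, chr11:69964529-69964778 on the plus strand for Cldn7, chr16:26371840-26372089 on the minus strand for Cldn1 and chr5:5514977-5515226 on the minus strand for Cldn12. Where the RefSeq table gives several starts, the most upstream was taken, which concerned Cldn7 with 2 starts and Cldn12 with 3. Capitals mark matches on either strand to the searched motifs, which are named after the sequences.
Cldn2: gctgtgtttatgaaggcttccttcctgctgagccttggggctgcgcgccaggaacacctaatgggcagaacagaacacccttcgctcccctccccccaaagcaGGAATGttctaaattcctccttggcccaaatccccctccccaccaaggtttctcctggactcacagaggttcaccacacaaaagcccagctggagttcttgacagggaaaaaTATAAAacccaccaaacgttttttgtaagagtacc
Cldn7: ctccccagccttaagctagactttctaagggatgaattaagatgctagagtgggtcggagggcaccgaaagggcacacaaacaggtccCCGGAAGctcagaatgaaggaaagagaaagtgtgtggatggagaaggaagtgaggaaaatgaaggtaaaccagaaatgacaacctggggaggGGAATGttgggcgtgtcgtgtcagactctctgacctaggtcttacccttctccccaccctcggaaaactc
Cldn1: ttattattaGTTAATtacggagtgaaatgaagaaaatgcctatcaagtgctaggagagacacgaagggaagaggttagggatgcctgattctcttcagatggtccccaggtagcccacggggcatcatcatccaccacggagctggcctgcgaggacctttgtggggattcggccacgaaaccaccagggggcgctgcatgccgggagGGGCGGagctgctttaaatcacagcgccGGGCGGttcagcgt
Cldn12: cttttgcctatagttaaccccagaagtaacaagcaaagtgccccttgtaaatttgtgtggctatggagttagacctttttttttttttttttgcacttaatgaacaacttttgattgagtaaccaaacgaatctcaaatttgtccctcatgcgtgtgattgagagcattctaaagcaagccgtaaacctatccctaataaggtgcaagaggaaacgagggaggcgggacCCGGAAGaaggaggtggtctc

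The search covered 300 bases, 250 before and 50 after the start, and 9 of the 10 claudins had an entry in the RefSeq table. Cldn8 was not matched. Cldn2 had the only TATAAA, the TATA box, among the 9, starting 35 bases before the gene's start, and 14.2% of all 27025 promoters held it. GGAATG, the core that TEAD factors bind, was in both claudins that were higher, 147 bases before and 28 bases after the start in Cldn2 and 70 bases before it in Cldn7. It was also in Cldn6 and Cldn14 and in 14.7% of all promoters. CCGGAAG, an ETS motif, stood 162 bases before the Cldn7 start and 21 bases before the Cldn12 start, so a claudin of each direction held it, against 9.14% of all promoters. Cldn1 held GTTAAT, part of an HNF1 motif, 241 bases before the start and GGGCGG, the GC box, 42 and 14 bases before it, which 7.22% and 35.9% of promoters held. GGGCGG was in 5 of the 9 claudins, Cldn1, Cldn3, Cldn4, Cldn5 and Cldn6. CCAAT was in Cldn5, Cldn12 and Cldn14 and in 38.0% of all promoters, TGANTCA, an AP-1 motif, in Cldn4 and in 7.92%, and AACNNGTT, a Grainyhead-like motif, in Cldn5 and in 4.20%. The Cldn1 stretch of 300 bases held 15 CpG and was 56% G and C, whereas Cldn2 held 5 CpG, Cldn7 held 7 and Cldn12 held 10, and the median over all promoters was 7 CpG and 52.7% G and C. No motif was shared by the pair that was higher and absent from all others, and a match is a stretch of letters, not a measured binding site.

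The claudins of hepatocyte junctions did not move together. Cldn1, a barrier claudin of many epithelia and an entry factor of hepatitis C virus in human hepatocytes, had levels of 9.67, 9.87 and 9.88 in wild type (WT-27, then WT-103, then WT-104). Its levels in knockout, in the order KO-03, KO-90, KO-91 and then KO-94, were 8.83, 8.95, 9.20 and 9.27. Every knockout array thus lay under the lowest wild-type array, and KO-03 was the lowest. The means were 9.81 ± 0.12 (SD, n = 3) and 9.06 ± 0.21 (SD, n = 4), a 1.68-fold lower level in knockout. A second Cldn1 probe set read 7.97, 7.85 and 8.23 in wild type and 7.04, 7.63, 7.42 and 7.78 in knockout, a difference of -0.55 ± 0.18 (SE) with no overlap. The other 2 of the 4 Cldn1 probe sets did not exceed the floor on any array, with differences of 0.03 and 0.07. Averaging all 4 probe sets made the Cldn1 difference -0.30.

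Cldn3 is a major claudin of hepatocytes and bile ducts, and all 4 of its probe sets were above the floor on all arrays. Its used probe set read 10.10, 10.54 and 10.68 on the wild-type arrays and 10.24, 11.002, 10.64 and 10.95 on the knockout arrays, in the same order. KO-90 and KO-94 were above the wild-type range, KO-03 and KO-91 were inside it, and the difference was 0.27 ± 0.21 (SE). The 4 probe sets gave differences from 0.21 to 0.32, all with overlapping arrays. Cldn14, which is found in liver, kidney and inner ear and is altered in an inherited deafness, read 7.15, 6.78 and 6.63 in wild type and 6.78, 6.13, 6.04 and 6.69 in knockout. KO-90 and KO-91 were under the wild-type range and the other two lay inside it. The Cldn14 difference was -0.45 ± 0.21 (SE).

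Cldn12, an unusual claudin without the C-terminal motif that binds PDZ scaffold proteins, was lower in knockout on both of its probe sets. Its brighter probe set read 9.92, 10.15 and 9.99 in wild type and 9.52, 9.15, 9.50 and 9.19 in knockout. All knockout arrays were under all wild-type arrays, with means of 10.02 ± 0.12 (SD, n = 3) and 9.34 ± 0.20 (SD, n = 4) and a 1.60-fold lower level in knockout. The other probe set read 9.06, 9.06 and 9.01 in wild type and 8.70, 8.36, 8.35 and 8.19 in knockout. Its groups did not overlap either, and its difference was -0.64 ± 0.13 (SE).

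**Figure D1:**
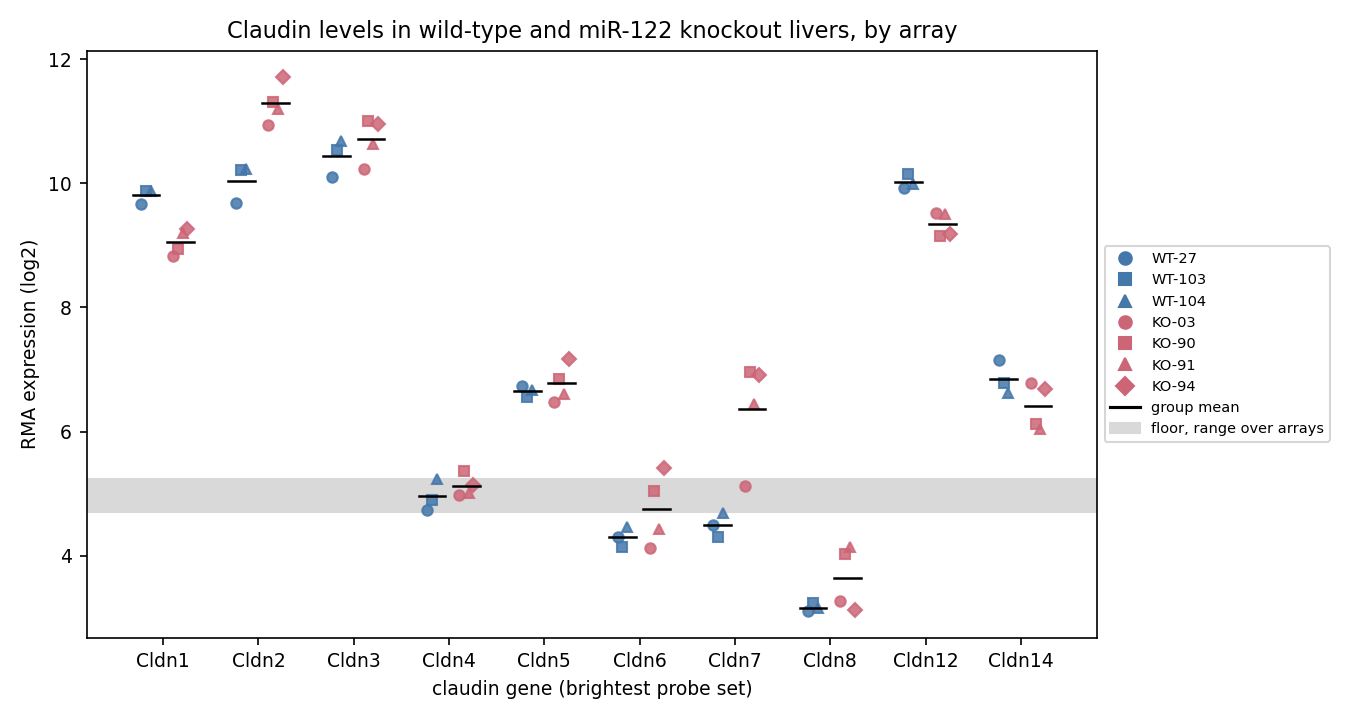
Log2 RMA level (vertical axis) of the used probe set of each of the 10 claudins on the 3 wild-type arrays (blue) and the 4 knockout arrays (red), with a symbol per animal, a black bar at each group's mean and the range of the floor over arrays in grey. Knockout symbols lie wholly above wild type for Cldn2 and Cldn7 and wholly below for Cldn1 and Cldn12, and all 7 Cldn8 symbols lie in or under the grey band. Levels of different genes come from different probe sets and are not comparable in height.

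Cldn2 forms a pore for cations and water, which makes the junctions that hold it leaky, and in mouse liver it is enriched toward the central vein. Its used probe set read 9.68, 10.21 and 10.22 in wild type and 10.94, 11.31, 11.19 and 11.70 in knockout. The lowest knockout array, KO-03, was still above the highest wild-type array. The means were 10.04 ± 0.31 (SD, n = 3) and 11.29 ± 0.32 (SD, n = 4), a 2.38-fold higher level in knockout. The other Cldn2 probe set read 8.002, 8.03 and 8.22 in wild type and 9.04, 9.64, 9.18 and 9.94 in knockout. It gave a difference of 1.37 ± 0.21 (SE), again without overlap and with KO-94 highest and KO-03 lowest of the knockout arrays.

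Markers of hepatocytes near the central vein were set beside Cldn2. Of 11 measured, 3 rose, 0 fell and 8 did not pass, in limma with Benjamini-Hochberg adjustment over all genes (at an unadjusted p under 0.05, 6 were higher and 0 lower). Over all genes, 2.58% were called higher and 0.951% lower. Oat, ornithine aminotransferase, rose by 1.03 ± 0.12 (SE, adjusted p = 0.00253), Lhpp by 1.01 ± 0.19 (SE, adjusted p = 0.0276) and the glutamate transporter Slc1a2 by 1.52 ± 0.32 (SE, adjusted p = 0.0400). In leave-one-out fits the adjusted p reached 0.112 for Lhpp, which was not called without any of WT-27, WT-103, WT-104, KO-91 and KO-94. It reached 0.129 for Slc1a2, which was not called without any of WT-27, WT-103, WT-104, KO-90 and KO-91, and 0.0214 for Oat, called in all 7. With the mean of its 5 probe sets, whose differences ran from 0.21 to 1.52, Slc1a2 had an adjusted p of 0.185. The defining markers Glul, Cyp2e1 and Lgr5 had differences of 0.06, 0.02 and 0.01 with adjusted p of 0.849, 0.961 and 0.994, and are named after their values were seen. Rhbg and Cyp1a2 had differences of 0.56 and 0.50 with adjusted p of 0.139 and 0.150. All 11 were above the floor on every array. The summed linear signal of the list was between 41973 and 43205 in wild type and between 46566 and 55044 in knockout, and its part in the Cldn2 difference was not tested. In whole liver, more cells of a kind and more RNA per cell cannot be told apart.

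Cldn4 and Cldn7 are claudins of bile ducts and other ductal epithelia, and they differed in how far they moved. Cldn7 read 4.50, 4.30 and 4.69 in wild type, with none of the 3 arrays above the floor. In knockout it read 5.12, 6.97, 6.44 and 6.92, above the floor on all 4 arrays. KO-03 was the lowest knockout array by a wide margin and was still above every wild-type array. The means were 4.50 ± 0.19 (SD, n = 3) and 6.36 ± 0.86 (SD, n = 4), and with wild type set to its floor the level was at least 2.75-fold higher in knockout. Cldn4 read 4.74, 4.89 and 5.24 in wild type and 4.98, 5.37, 5.01 and 5.14 in knockout, close to the floor throughout, with 1 wild-type array under it. Its arrays overlapped, and its difference was 0.16 ± 0.15 (SE).

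Of 10 bile duct cell markers measured, 5 rose, 0 fell and 5 did not pass in limma (at an unadjusted p under 0.05, 7 were higher and 0 lower). The shares called over all genes were 2.58% higher and 0.951% lower. Because the wild-type arrays of these 5 markers were at or near the floor, the rises are lower bounds on the log2 scale. Cd24a rose by at least 2.73 (adjusted p = 0.00253), Epcam by at least 2.06 (adjusted p = 0.00846) and the tetraspanin Tspan8 by at least 1.70 (adjusted p = 0.00504). Each adjusted p is for the difference with values as read, not for the bound. Those differences were 2.84 for Cd24a, 2.18 for Epcam and 3.20 for Tspan8. Anxa13, an annexin, rose by at least 1.16 (adjusted p = 0.00542), and the ductal keratin Krt19 by at least 1.10 (adjusted p = 0.0225). As read, their differences were 2.36 and 1.39. The other 4 Tspan8 probe sets, at or close to the floor, had differences from 0.03 to 0.47. Leaving out WT-103 brought the Epcam adjusted p to 0.0556, and its second probe set had a difference of -0.17. Krt19 was called in 1 of 7 leave-one-out fits, the fit without KO-03, and its adjusted p reached 0.109. The ductal keratin Krt7 and the chloride channel Cftr had differences of 0.37 and 0.46 with adjusted p of 0.548 and 0.457, and did not exceed the floor on any array. The transcription factor Sox9 had a difference of 0.44 with an adjusted p of 0.214, and Muc1 one of 0.58, or at least 0.27 against the wild-type floor, with an adjusted p of 0.0813. Slc4a2, a bicarbonate exchanger, was above the floor on all 7 arrays and read 7.24, 7.06 and 7.10 in wild type and 6.96, 7.03, 6.86 and 6.83 in knockout. Its knockout arrays were all below its wild-type arrays, opposite to Cldn7, with a difference of -0.21 and an adjusted p of 0.377. Krt7, Cftr and Slc4a2 are named after their values were seen. Over the whole list, 5 of 10 markers did not exceed the floor on any wild-type array and 2 on any knockout array. The summed linear signal was between 329.6 and 356.8 in wild type and between 548.7 and 1061.6 in knockout. The list's mean log2 level was 5.30 on KO-03 against 6.18, 6.23 and 5.95 on KO-90, KO-91 and KO-94. The knockout array with the least Cldn7 thus had the lowest marker mean, which was not particular to this list. KO-03 also had the lowest knockout mean for the endothelial, stellate cell, macrophage, transcription factor and all junction lists described below. For example, the stellate cell mean was 8.14 on KO-03 against 8.22, 8.26 and 8.47 on KO-90, KO-91 and KO-94. It was not the lowest for the hepatocyte and pericentral lists. The part of the bile duct cell markers in the Cldn7 difference was not tested.

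**Figure D2:**
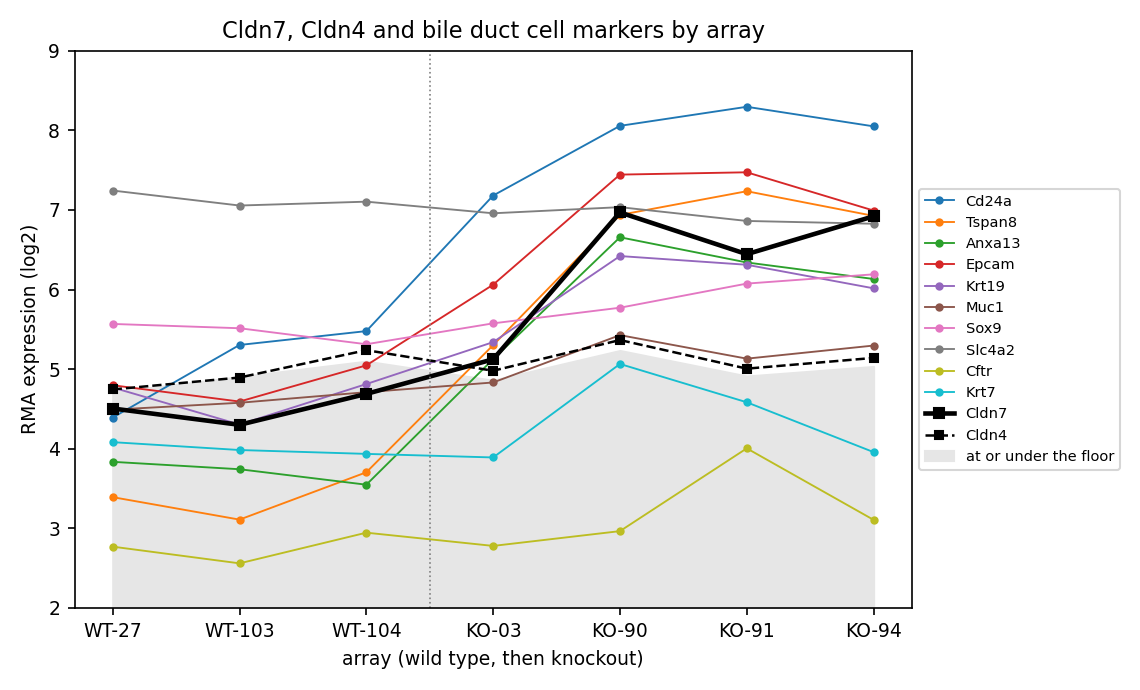
Log2 RMA level (vertical axis) of Cldn7 (black squares, solid line), Cldn4 (black squares, dashed line) and the 10 measured bile duct cell markers (coloured) on each of the 7 arrays, wild type left of the dotted line and knockout right of it. The lines only join values of a gene, and the grey area is at or under each array's floor. Cldn7 leaves the grey area on KO-03 at 5.12 and is highest on KO-90 at 6.97, while Krt7 and Cftr stay in it on all arrays and Cldn4 runs along its edge.

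Cldn5 is the claudin of endothelial cells. It read 6.73, 6.56 and 6.67 in wild type and 6.48, 6.85, 6.61 and 7.18 in knockout, with KO-03 the lowest and KO-94 the highest of all 7 arrays. The difference was 0.13 ± 0.17 (SE), and without KO-94 it was -0.01. Of 16 endothelial markers, 0 rose and 0 fell in limma (at an unadjusted p under 0.05, 2 were higher and 1 lower). Vwf, von Willebrand factor, had a difference of 0.63 with an adjusted p of 0.196, and Lyve1, a sinusoidal marker, one of -0.66 with an adjusted p of 0.221. The summed linear signal of the list was between 3391 and 3579 in wild type and between 3361 and 4014 in knockout, and each marker exceeded the floor on at least 1 array. Its part in the spread of Cldn5 was not tested.

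Cldn6 and Cldn8 were near or under the floor. Cldn6, a claudin of embryonic epithelia, read 4.30, 4.15 and 4.47 in wild type and 4.13, 5.04, 4.44 and 5.42 in knockout. All but KO-94 were at or under the floor, and the arrays overlapped, so no fold is given. Cldn8, a claudin of kidney tubules and colon, read 3.11, 3.24 and 3.16 in wild type and 3.28, 4.04, 4.15 and 3.13 in knockout. All 7 values were under the floor, with KO-90 and KO-91 above the rest.

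Counted over genes, 2 of the 10 claudins were called higher, 2 lower and 6 neither, beside the 2.58% and 0.951% of all genes given above. In 2 genes every knockout array was above every wild-type array and in 2 it was below, beside 9.15% and 6.62% of all genes. Nothing is read from these counts, since the genes were picked with this contrast known. The median difference of the 10 was 0.22 on the log2 scale, with 7 positive and 3 negative. Fitted over all probe sets, of which 1.29% were called higher and 0.32% lower, 2 of the 18 were called higher, both of Cldn2. The 2 called lower were the brighter probe sets of Cldn1 and Cldn12. The Cldn7 probe set was called in the fit over genes and not in the fit over probe sets. Each of the 4 gene calls was lost in at least 1 leave-one-out fit. Such a fit has fewer arrays, so a lost call need not come from the animal left out. Cldn2 was called in 6 of 7 leave-one-out fits, all but the one without WT-103, where its difference was 1.34. Cldn1 was called in 2 of 7, those without KO-03 and without KO-94, with differences of -0.67 and -0.82. Cldn7 and Cldn12 were each called in 1 of 7, the fit without KO-03, with differences of 2.28 and -0.74. The arrays of these 4 genes did not overlap between genotypes, so leaving out an array could not change the sign of a difference. No other alternative changed a sign either. Over the leave-one-out fits the differences lay between -0.82 and -0.67 for Cldn1 and 1.07 and 1.37 for Cldn2. They lay between 1.66 and 2.28 for Cldn7 and -0.74 and -0.61 for Cldn12. The Cldn7 values here use its wild-type readings as they are, all of them at or under the floor.

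**Figure D3:**
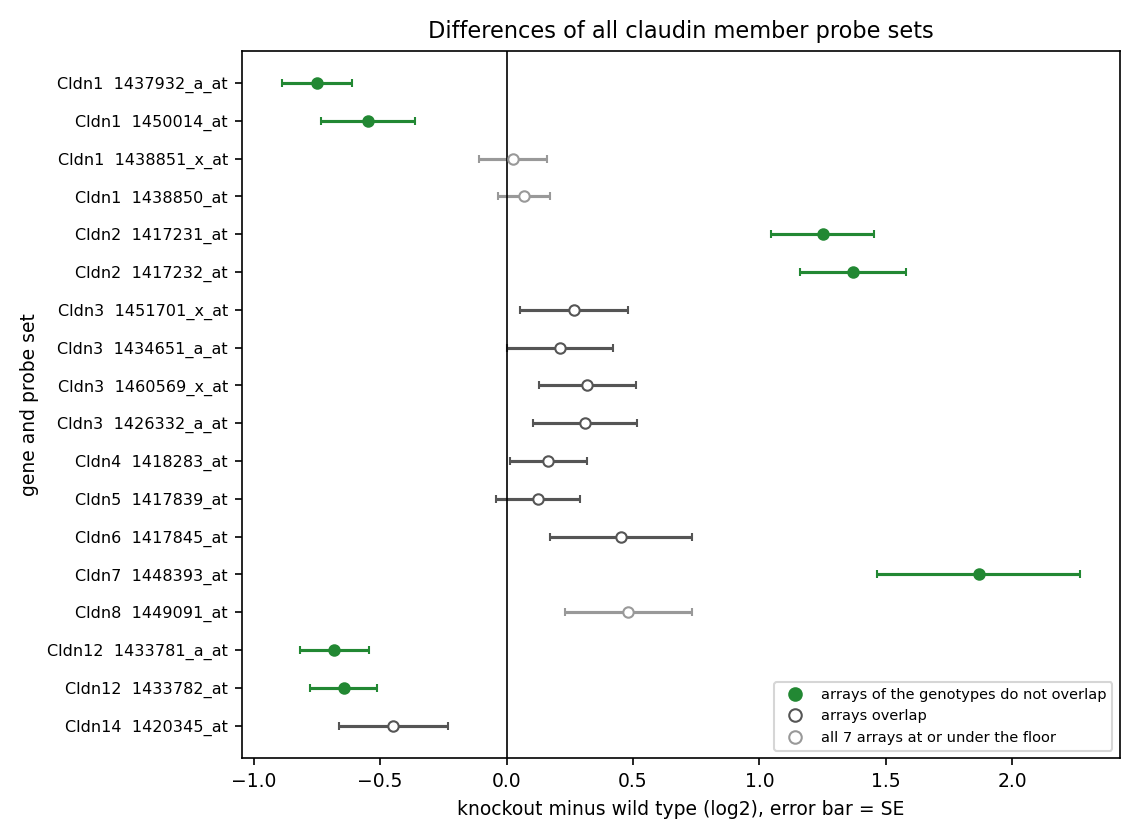
Difference of knockout minus wild type on the log2 scale (horizontal axis) for each of the 18 claudin probe sets, with bars of 1 SE from limma. Filled green points are probe sets whose genotypes do not overlap, open dark points overlap, and open grey points have all 7 arrays at or under the floor. The 2 Cldn2 probe sets and Cldn7 stand right of 1, and 4 filled points of Cldn1 and Cldn12 stand left of -0.5.

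The knockout array nearest to wild type was not the same for all claudins. KO-03 was the knockout array nearest the wild-type mean for 5 of the 10 genes, Cldn2, Cldn4, Cldn7, Cldn12 and Cldn14. It was also the knockout array farthest from wild type for Cldn1, at 8.83. KO-91 was nearest for Cldn3, Cldn5 and Cldn6, and KO-94 for Cldn1 and Cldn8. An array is nearest for any gene, changed or not, and 6 of the 10 genes, Cldn4 and Cldn14 among them, overlapped between genotypes. Nothing is read from these counts.

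On the chromosomes, 4 of the 10 claudins lie on chromosome 16 (Cldn1, Cldn5, Cldn8 and Cldn14), 3 on chromosome 5 (Cldn3, Cldn4 and Cldn12), and Cldn7, Cldn6 and Cldn2 on chromosomes 11, 17 and X. In RefSeq's gene order on GRCm38.p6, no protein-coding gene lies between Cldn4 and Cldn3, whose differences were 0.16 and 0.27 with overlapping arrays. Cldn1 is likewise next to Cldn16, the claudin of magnesium reabsorption in the kidney, which did not exceed the floor on any array here and a difference of -0.16. Cldn6 is next to Cldn9, and Cldn9 had a difference of -0.02 ± 0.13 (SE).

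The array also named 14 other claudin genes, and limma called 0 of them in either direction (at an unadjusted p under 0.05, 1 was higher and 0 lower). Of the 14, 12 did not exceed the floor on any array: Cldn10, Cldn11, Cldn13, Cldn15, Cldn16, Cldn18, Cldn19, Cldn23, Cldn34b2, Cldn34c1, Cldn34c4 and Cldn34d. The 2 above it on all arrays were Cldn9 and Cldn22, and Cldn22 had a difference of 0.11 ± 0.11 (SE, adjusted p = 0.693). Cldn23 was the gene with the low unadjusted p, and read 3.13, 3.05 and 2.86 in wild type and 3.23, 3.65, 3.41 and 3.14 in knockout, under the floor throughout, with an adjusted p of 0.272. The differences of the 14 lay between -0.16 and 0.35, with a median of 0.01.

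Of 36 other tight junction genes measured, 3 rose, 0 fell and 33 did not pass in limma (at an unadjusted p under 0.05, 11 were higher and 1 lower). Over all genes, 2.58% were called higher and 0.951% lower, so calls in the series were mostly rises. The median difference of the 36 genes was 0.20 against 0.013 over all genes. Ocln, occludin, the membrane protein that lies beside claudins in the junction strands, read 7.96, 7.46 and 7.50 in wild type and 9.23, 9.04, 8.91 and 8.87 in knockout. It rose by 1.37 ± 0.15 (SE, adjusted p = 0.00259), with every knockout array above every wild-type array and an adjusted p of at most 0.0213 over its alternatives. Unlike Cldn2 and Cldn7, it was highest on KO-03. Marveld3, a membrane protein related to occludin, rose by at least 0.29 against the wild-type floor, a bound that carries no test. With its values as read, the difference was 0.90 ± 0.20 (SE, adjusted p = 0.0422 in limma). It was called in 1 of 7 leave-one-out fits, that without KO-03, and its adjusted p reached 0.163. Of its other 2 probe sets, which had differences of 0.06 and 0.88, the first was under the floor throughout. Jam2 and Lsr, the tricellular junction receptor, had differences of 0.80 and 0.44 with adjusted p of 0.0972 and 0.408. The membrane list held 2 rises among 14 genes and a median difference of 0.19.

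Among 22 measured scaffold and polarity genes, 1 rose, 0 fell and 21 did not pass (at an unadjusted p under 0.05, 8 were higher and 1 lower). Amot, angiomotin, a scaffold that also binds the YAP regulator of the Hippo pathway, rose by 0.85 ± 0.12 (SE, adjusted p = 0.00825). Without WT-103 or with the mean of its probe sets it was not called, with an adjusted p of up to 0.137, and its other 2 probe sets had differences of -0.14 and 0.14. Mpdz, a scaffold with many PDZ domains, had a difference of -0.62 (adjusted p = 0.0775), with all knockout arrays below all wild-type arrays, and was called lower only when arrays were weighted (adjusted p = 0.0313). Amotl1 had a difference of 0.37 (adjusted p = 0.148). Tjp1, the scaffold ZO-1 that claudin tails bind, had a difference of -0.04, and Cgn, cingulin, one of -0.08, with adjusted p of 0.935 and 0.828. Tjp1 and Cgn are named after their values were seen, as the best known scaffolds of the list.

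Of 25 measured genes of the neighbouring adherens junctions, desmosomes and gap junctions, 3 rose, 0 fell and 22 did not pass in limma (at an unadjusted p under 0.05, 12 were higher and 1 lower). Their median difference was 0.26, and limma called 2.58% of all genes higher and 0.951% lower. Gja1, a connexin, rose by 1.70 ± 0.15 (SE, adjusted p = 0.00108), the desmosome plakin Ppl by 1.37 ± 0.18 (SE, adjusted p = 0.00542) and Gja4, an arterial connexin, by 0.90 ± 0.18 (SE, adjusted p = 0.0288). The other 5 Gja1 probe sets had differences from 0.30 to 1.37. Gja4 was not called without any of WT-27, WT-103, WT-104 and KO-90, and its adjusted p then reached 0.138. Jup, plakoglobin, and the plakophilin Pkp3 had differences of 0.72 and 0.62 (adjusted p = 0.0875 and 0.0918), and Gjb2, a connexin of hepatocytes, one of 0.48 (adjusted p = 0.165). Gja5 had a difference of 0.37 with all its arrays under the floor.

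**Figure D4:**
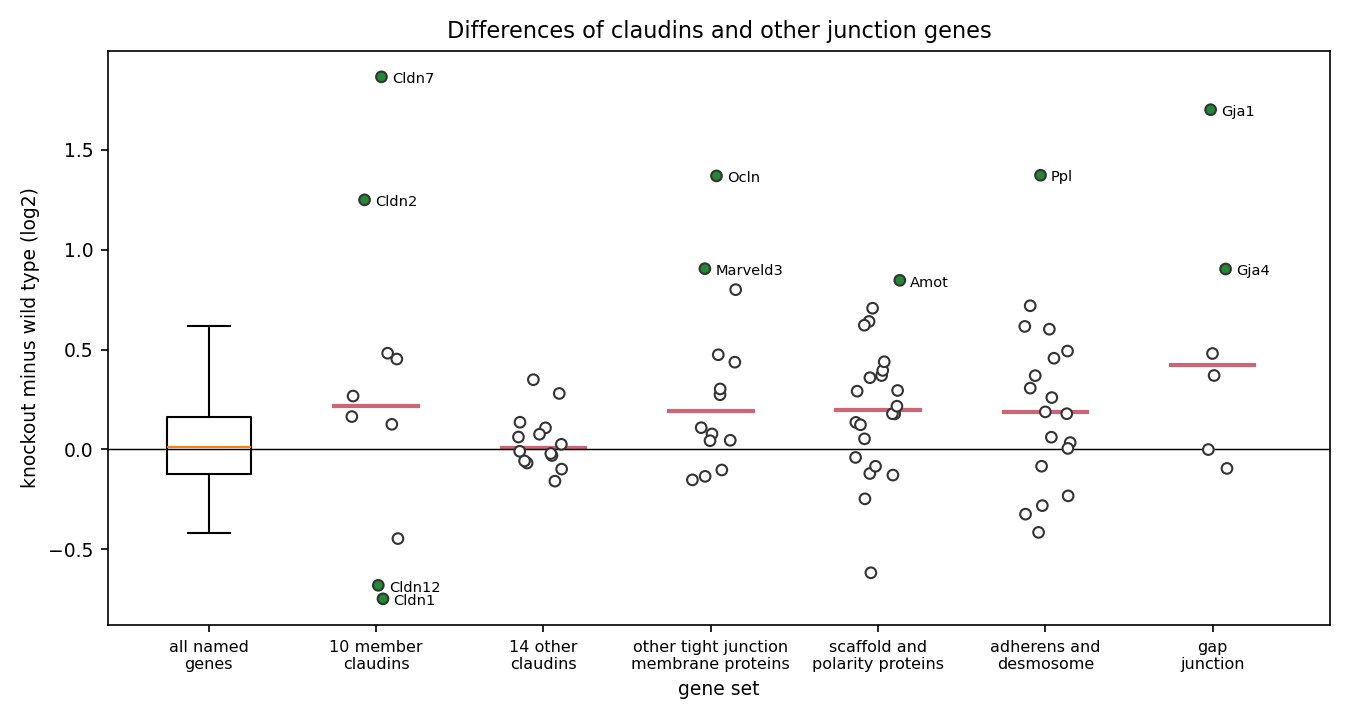
Difference of knockout minus wild type on the log2 scale (vertical axis) for the 10 claudins, the 14 other claudins and 4 lists of other junction genes, a point per gene, with filled points for genes called by limma at an adjusted p under 0.05 and a red bar at each set's median. The box gives the quartiles and median of all 18193 genes, with whiskers at the 5 and 95 percentiles. Filled points lie on both sides of 0 for the 10 claudins and only above 0 in the other lists, and the 14 other claudins lie between -0.16 and 0.35.

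Among 13 measured transcription factors with a known role at claudin genes, 1 rose, 0 fell and 12 did not pass (at an unadjusted p under 0.05, 4 were higher and 1 lower). The shares called over all genes were 2.58% higher and 0.951% lower. Elf3, an ETS factor of epithelia, read 5.53, 5.64 and 5.65 in wild type and 6.50, 7.33, 6.50 and 7.42 in knockout. It rose by 1.33 ± 0.24 (SE, adjusted p = 0.0229) and was not called without any of WT-27, WT-103, WT-104 and KO-90, where its adjusted p reached 0.0959. Zeb1 and Snai1, repressors of epithelial junction genes, had differences of -0.30 and 0.30 with adjusted p of 0.196 and 0.205, and Snai1 was under the floor on all arrays. Whether any of these factors acts on the claudins described here was not tested.

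The genes whose pattern over the 7 arrays was most like each called claudin were found by Pearson correlation of log2 values among 16319 genes, as a description with no test. The correlation within genotypes, after subtracting each group's mean, is given beside it, since the genotype difference alone lifts the first value. The genes were picked by the first value, and that choice raises the second as well. No background is given for the second value. Cldn2 was most like Ctps2, a CTP synthase, with r = 0.996 over 7 arrays and 0.977 within genotypes, then Naaa (0.994 and 0.960) and Tmem139 (0.993 and 0.964). Cldn7 was most like Fkbp7 (0.995 and 0.988), the cytochrome Cyp1b1 (0.992 and 0.972) and the autophagy receptor Sqstm1 (0.992 and 0.971). Cldn1 was most like Nkapl (0.984 and 0.884), Higd2a (0.983 and 0.877) and the DNA methyltransferase Dnmt3b (0.983 and 0.965). Cldn12 was most like the proprotein convertase Pcsk5 (0.992 and 0.952), Tmx1 (0.986 and 0.940) and Atp5k (0.985 and 0.907). With 7 arrays, r over 0.9 was common: 168 genes reached it for Cldn1, 653 for Cldn2, 787 for Cldn7 and 189 for Cldn12.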

How the data were processed

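RNA of 7 frozen livers was made into biotinylated cRNA for Affymetrix arrays, per the labels' protocols. The authors' deposited log2 values came from RMA, run in Partek, per the submitters' processing notes. Software versions and the annotation's genome build were not given in the sources used here. RMA quantile normalizes arrays, so a shift common to most genes would not appear. Array values carry no read depth, and the number of arrays limits their precision.

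Of 45101 probe sets, 64 controls were left out of the tests. Symbols came from the platform annotation, which gave 1 symbol to 34945 probe sets and several to 932, with 9160 unlisted, and only the first kind was named. Genes took their brightest probe set by mean. A linear model without covariates was fitted to all 7 arrays with limma 3.58.1 (two-sided moderated test, R 4.3.3) over 18193 genes and over 45037 probe sets, with Benjamini-Hochberg adjustment and a threshold of 0.05, and was tested on simulated data. For each rise given as a lower bound, any wild-type array at or under its own floor was set to that floor. The other wild-type arrays kept their values, so 1 such array was enough for a bound, as for Cd24a. All p-values were computed on the values as read, and the bounds carry no test. The members and lists were chosen with earlier results of these data known. Genes were named by rule: every claudin, the called genes of each list (up to 6) and the 2 with the next smallest p, and 3 most alike genes per called claudin. Genes outside this rule are said to be named after their values were seen. The 17 alternatives comprised other priors, array weights, normalizations, filters, probe set choices and thresholds, and leaving out each array. Promoters were read from RefSeq.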

Additional observations from a re-analysis of the deposited data

Results flagged for a closer look

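In 83 groups of 4 knockout arrays, an array was marked where its gap to the nearest other, divided by the range, was above the 95% critical value of Dixon's test for 4 values. This held for 4 groups, and chance marks about 1 in 20. Among the other claudins, Cldn10 was 4.66 on KO-94 against 3.82 to 3.91 on the other knockout arrays, all under the floor. Mpdz, the scaffold with many PDZ domains, was 7.61 on KO-94 against 8.15 to 8.23. Tspan8, the bile duct cell marker, was 5.30 on KO-03 against 6.93 to 7.23. The mean log2 level of the adherens junction and desmosome list was 8.12 on KO-03 against 8.28 to 8.30.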

How the results depend on the processing

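Each claudin call was lost in at least 1 fit with an array left out, and the floor limits Cldn4, Cldn6, Cldn7 and Cldn8. Claudin genes called higher numbered 2 and became 0 at an adjusted p under 0.01, 1 with a robust prior and 0 to 2 when each array was left out. Claudin genes called lower numbered 2 and became 0 at an adjusted p under 0.01, 0 at a minimum of 1 on the log2 scale, 1 with the mean of all probe sets and 0 to 2 when each array was left out. Claudin probe sets called higher numbered 2 and became 0 at an adjusted p under 0.01 and 0 to 3 when each array was left out. Claudin probe sets called lower numbered 2 and became 0 at an adjusted p under 0.01, 0 at a minimum of 1, 1 with a trended prior, 1 with a further quantile normalization, 1 without probe sets ending in _x_at or _s_at and 0 to 3 when each array was left out. Tight junction genes called higher numbered 3 and became 1 at a minimum of 1, 6 with array weights and 1 to 6 when each array was left out, and those called lower numbered 0 and became 1 with array weights. Adherens, desmosome and gap junction genes called higher numbered 3 and became 5 with array weights and 2 to 5 when each array was left out. Transcription factors called higher numbered 1 and became 0 at an adjusted p under 0.01 and 0 to 2 when each array was left out. Other claudins called numbered 0 under all 17 alternatives. Of 335 recomputed claudin differences, 1 moved by more than the spread between replicates, Cldn1 with the mean of all probe sets (-0.30), where 2 probe sets under the floor enter the mean. Many of the 335 could not move, because a filter that keeps the same probe set returns the same value. The brightest probe sets also enter both as genes and as probe sets. The count is therefore no measure of robustness. No called claudin difference changed sign, but leaving out an array could not have changed one, since their arrays did not overlap between genotypes. No paired analysis was possible because the animal numbers do not recur between genotypes.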

Other observations

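Stellate cell and macrophage markers were measured as well, beside the bile duct, endothelial and pericentral lists. Of 8 stellate cell markers, 3 rose, 0 fell and 5 did not pass in limma (at an unadjusted p under 0.05, 4 were higher and 0 lower). Over all genes, 2.58% were called higher and 0.951% lower. The receptor Pdgfrb rose by 1.03 ± 0.15 (SE, adjusted p = 0.00816), the matrix proteoglycan Dcn by 0.90 ± 0.14 (SE, adjusted p = 0.0135) and the transcription factor Hand2 by 1.09 ± 0.23 (SE, adjusted p = 0.0353). Leaving out WT-103 brought the Pdgfrb adjusted p to 0.0530, leaving out WT-27 or WT-103 that of Dcn to as much as 0.0732, and Hand2 was called only in the leave-one-out fit without KO-03, with an adjusted p of up to 0.164. Des and Reln had differences of 0.36 and 0.34 with adjusted p of 0.258 and 0.328. The summed linear signal of the list was between 3569 and 3810 in wild type and between 5312 and 6452 in knockout. Of 8 macrophage markers, 0 rose and 0 fell in limma (at an unadjusted p under 0.05, 2 were higher and 0 lower). Marco and Cd68 had differences of 0.89 and 0.68 with adjusted p of 0.0667 and 0.214. The part of either list in the claudin differences was not tested.

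Of 8 hepatocyte markers, 0 rose and 0 fell in limma (at an unadjusted p under 0.05, 1 was higher and 0 lower). Tat, tyrosine aminotransferase, had a difference of 0.90 with an adjusted p of 0.0533, and Ass1, argininosuccinate synthase, one of -0.33 with an adjusted p of 0.680.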
